A study of Mus musculus with 8 samples.

Results

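The genes described here encode proteins of the granules and cytosol of neutrophils, and were read out from cochlear RNA of 4 WT and 4 *Opa1*+/- mice. The 10 members were found by symbol among 47628 named entries of the count tables, each symbol once: *Mpo*, *Elane* and *Prtn3* as early members, *Ltf*, *Camp*, *Ngp*, *Lcn2* and *Mmp8* as middle members, and *S100a8* and *S100a9* as late members. Whole isolated cochleae of untreated mice aged 21 days were sequenced as bulk tissue, in the WT animals numbered 4, 5, 6 and 8 and the *Opa1*+/- animals that the labels call Het_2, Het_7, Het_484 and Het_491. The *Opa1*+/- mice carry in every cell 1 copy of a knock-in delTTAG allele of *Opa1*, which encodes a dynamin-like GTPase of the inner mitochondrial membrane, beside 1 WT copy, and the WT mice were littermates on the same mixed background of C57BL/6J and 129Sv/Pas. No promoter or Cre restricts this model to a cell type, and marrow and blood cells carry the allele as well. In bulk RNA, fewer cells of a type and less RNA per cell cannot be told apart.

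Neutrophils arise in the marrow, and their granule proteins are made in waves rather than all at once. Serine proteases and myeloperoxidase of the primary granules are transcribed first, in promyelocytes, proteins of the secondary and tertiary granules follow in myelocytes and later stages, and the calcium-binding S100 pair stays abundant in mature cells, which transcribe few of the other granule genes. The cochlea lies inside bone of the skull that holds marrow, and blood runs through it. A whole-cochlea extract can therefore hold RNA of marrow and blood cells.

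*Elane* and *Prtn3* are printed first, because these early serine protease genes lie side by side on chromosome 10 and the results below compare their levels mouse by mouse. Stretches from 120 bases before to 20 bases after the RefSeq start (GRCm38.p6, plus strand) were taken at chr10:79886192-79886331 for *Elane* and chr10:79879547-79879686 for *Prtn3*, written 5′ to 3′. Capitals mark GAGGAA, a core that the myeloid factor PU.1 binds, which begins 85 bases before the start in *Elane* and 95 bases before it in *Prtn3*.
Elane: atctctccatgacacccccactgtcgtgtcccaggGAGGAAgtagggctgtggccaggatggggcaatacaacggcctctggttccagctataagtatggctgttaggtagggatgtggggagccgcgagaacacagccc
Prtn3: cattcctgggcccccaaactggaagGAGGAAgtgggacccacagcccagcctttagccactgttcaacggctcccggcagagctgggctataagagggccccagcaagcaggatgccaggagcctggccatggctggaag

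*Ltf* and *Ngp* are shown as middle members that lie on the plus strand of chromosome 9 and share letters yet varied apart between mice. Their stretches lie at chr9:111019172-111019311 and chr9:110419688-110419827 of the same build. Capitals mark TTGCNNAA and TTNNGNAA, letters that C/EBP factors bind and of which every match to the former is also a match to the latter. Both stretches hold TTGGGCAA, which reads as TTGCNNAA on the minus strand and begins 75 bases before the start in *Ltf* and 11 bases before it in *Ngp*.
Ltf: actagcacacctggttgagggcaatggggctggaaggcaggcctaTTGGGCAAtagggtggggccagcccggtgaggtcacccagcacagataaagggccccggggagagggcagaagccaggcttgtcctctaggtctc
Ngp: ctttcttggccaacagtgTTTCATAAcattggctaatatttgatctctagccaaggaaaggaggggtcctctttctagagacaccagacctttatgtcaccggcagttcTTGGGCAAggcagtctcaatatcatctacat

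*S100a8* stands for the late members and had the largest SD of log2 CPM between mice of all 10, at 0.873. Its stretch, at chr3:90668951-90669090 on the plus strand, is marked in the same way. Capitals mark a TTNNGNAA match 117 bases before the start, a match to GAGGAA on the minus strand 36 bases before it and the letters TATAAA of a TATA box 30 bases before it, the last pair without a gap.
S100a8: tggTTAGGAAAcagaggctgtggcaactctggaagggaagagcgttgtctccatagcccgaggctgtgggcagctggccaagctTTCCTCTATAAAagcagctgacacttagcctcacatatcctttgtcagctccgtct

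Over windows of 300 bases, from 250 before to 50 after the start and read on both strands, GAGGAA was found for 7 of the 10 members and in 28.3% of 32851 RefSeq promoters. TTGCNNAA was found for 5 members, *Ltf*, *Ngp*, *Lcn2*, *S100a9* and *Mmp8*, and in 10.8% of promoters. TTNNGNAA, which these 5 and *S100a8* held, was found in 40.7% of promoters, and TATAAA for 3 members against 13.6%. *S100a8* held TATAAA 30 bases before the start, *S100a9* at the start and *Mmp8* on the minus strand 3 bases before it. *Camp* held none of these letters in its window. The matches describe the letters of these windows only, and binding was not measured.

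The members lie on 5 chromosomes (GRCm38, GENCODE vM21), and all are annotated as protein-coding. *Camp* (chr9:109847379-109849617, minus strand), *Ngp* (chr9:110419747-110423012, plus strand), *Ltf* (chr9:111019271-111042767, plus strand) and *Mmp8* (chr9:7558456-7568485, plus strand) share chromosome 9. *Prtn3* (chr10:79874476-79883174, plus strand) ends 3.07 kb before *Elane* (chr10:79886247-79888215, plus strand), and 22.6 kb separate *S100a8* (chr3:90668978-90670035, plus strand) from *S100a9* (chr3:90692632-90695721, minus strand). *Mpo* (chr11:87793581-87804413, plus strand) and *Lcn2* (chr2:32384633-32388252, minus strand) lie apart from the others.

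Reads of overlapping genes could not be told apart where strand was not used, and its use was not stated. *Mpo* shares 5361 bases with *Gm11505* on the other strand, listed at 0 to 0.186 CPM, and *Prtn3* shares 159 bases with *Plppr3* on the other strand, at 5.14 to 6.92 CPM. No other member overlaps an annotated gene.

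Counts on named genes ranged from 15978051 to 20828030 per mouse, and all 10 members passed the filter of a mean normalized count over 10, with 59 to 8313 counts per member and mouse. Levels are given as CPM, that is counts divided by library size after TMM scaling, and each p is two-sided. *Opa1* was lower in each *Opa1*+/- mouse than in each WT mouse, with a fold change of -0.87 on the log2 scale (standard error 0.0677, edgeR adjusted p = 0.00515). It was not called without mouse Het_2 (-0.85, edgeR adjusted p = 0.0704) or without mice Het_484 and Het_491 (-0.86). Hair cell markers summed to between 92.8 and 139 CPM and spiral ganglion neuron markers to between 4795 and 5867 CPM in the 8 libraries, so the labelled tissue was present in each. WT mouse 4 had the lowest sums of hair cell markers and of genes of the stria vascularis (1000 CPM, other mice 1276 to 1934 CPM). Its spiral ganglion neuron markers summed to 5745 CPM.

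Per length of transcript, the late pair stood highest. *S100a9* averaged 414 CPM per kb of merged exons over the 8 mice and *S100a8* averaged 162, followed by *Ngp* at 98.9, *Camp* at 57.4 and *Ltf* at 31.3. *Lcn2*, *Mpo* and *Elane* came next at 15.7, 15.5 and 15.4 CPM per kb, and *Prtn3* at 8.17 and *Mmp8* at 3.44 CPM per kb closed the order. The ranges over the 8 mice overlapped between each gene and the next in this order.

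None of the 10 members passed the test between WT and *Opa1*+/- cochleae. By the quasi-likelihood test of edgeR, adjusted over 19366 genes after Benjamini and Hochberg, 0 of 10 were called at an adjusted p under 0.05, beside 0.0258% of all genes tested, and 0 of 10 had an unadjusted p under 0.05, beside 6.72% (3.51% higher and 3.22% lower in *Opa1*+/- mice). DESeq2 and limma voom also gave 0 members at either threshold. For 0 of 10 did the groups separate without overlap, beside 4.31% of all genes. The log2 fold change was positive for 6 members and negative for 4, beside 50.1% of all genes that were positive, with a median of 0.02 for the members and 0.00 for all genes.

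The members' levels varied widely between mice. The SD of log2 CPM over the 8 mice lay between 0.64 and 0.87 with a median of 0.75, against a median of 0.17 over all genes tested, of which 3.13% lay above the members' median. The median standard error of the fold change was 0.46 for the members and 0.12 for all genes. Intervals of the fold change were wide accordingly: for *S100a9* the 95% interval ran from 0.457-fold to 2.19-fold, and over the 10 members its lower bound lay between 0.435-fold (*Camp*) and 0.778-fold (*Ltf*) and its upper bound between 1.82-fold (*Camp*) and 2.86-fold (*Ltf*). WT mouse 4 had the highest level of 8 members and mouse Het_491 that of the remaining 2, *Ltf* and *Lcn2*. In 9 of the 10, all but *Ltf*, the 3 highest mice were WT mouse 4 and mice Het_484 and Het_491, which do not share a genotype.

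**Figure D1:**
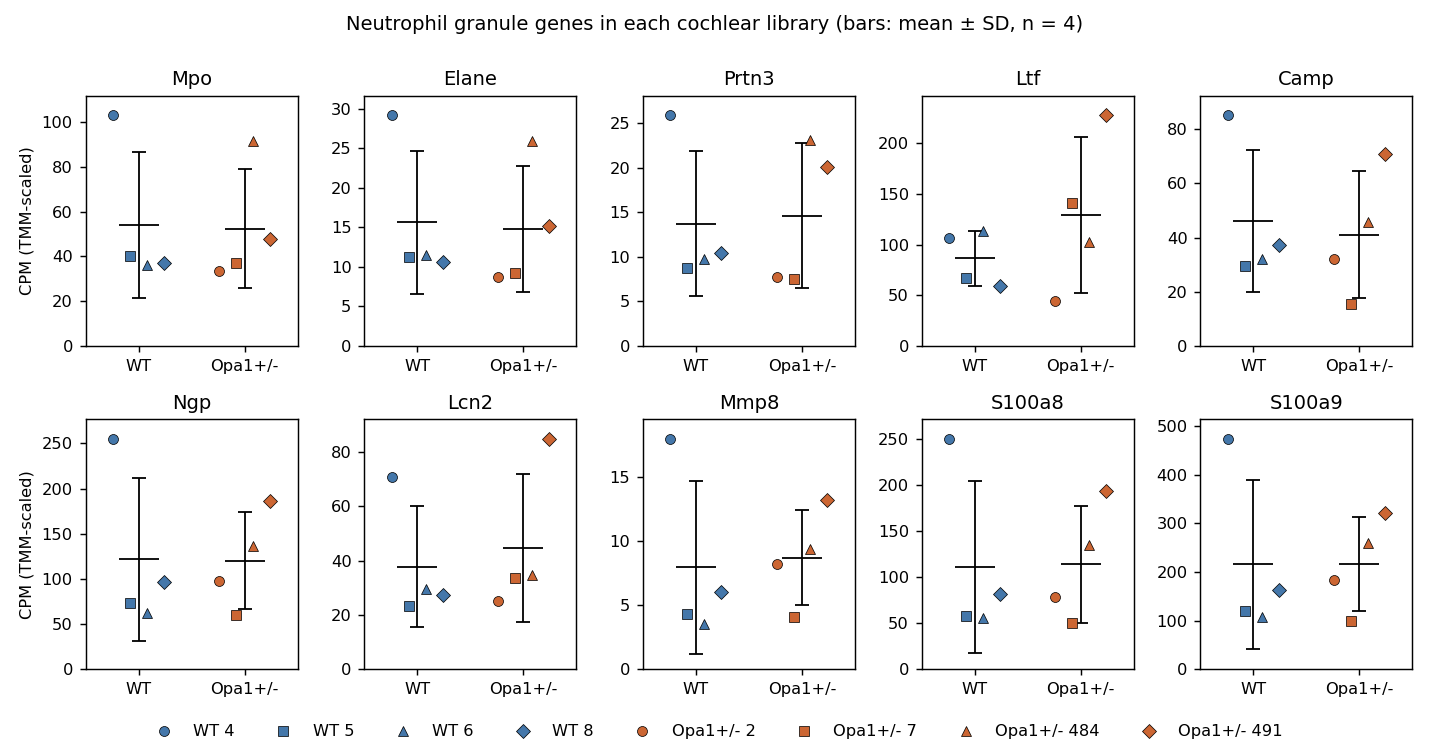
Levels of the 10 members in each mouse as TMM-scaled CPM on linear axes from 0, with 1 point per mouse and bars for the mean ± SD of 4 mice. WT mouse 4 (blue circle) stands above the other 3 WT mice in every panel except *Ltf*, and the groups overlap in all 10 panels.

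Among the early members, *Mpo*, which encodes the myeloperoxidase that makes hypochlorous acid from hydrogen peroxide, was measured at 103, 39.9, 36.0 and 37.1 CPM in WT mice 4, 5, 6 and 8 and at 33.5, 36.8, 91.5 and 47.9 CPM in mice Het_2, Het_7, Het_484 and Het_491. WT mouse 4 and mouse Het_484 were high, and the other 6 mice lay between 33.5 and 47.9 CPM in both genotypes. The means, 54.0 ± 32.7 CPM for WT against 52.4 ± 26.8 CPM for *Opa1*+/- (SD, n = 4 each), gave a fold change of -0.04 on the log2 scale (standard error 0.414, edgeR adjusted p = 0.987).

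*Elane*, the gene of neutrophil elastase, reached 29.2, 11.2, 11.5 and 10.6 CPM in WT and 8.69, 9.27, 25.9 and 15.1 CPM in *Opa1*+/- animals, listed in the same order. *Prtn3*, the gene of proteinase 3, a protease closely related to elastase, reached 25.9, 8.79, 9.74 and 10.4 CPM in WT and 7.75, 7.52, 23.1 and 20.04 CPM in *Opa1*+/- animals. The same pair of mice as for *Mpo* was high for both proteases, the groups overlapped, and mouse Het_491 was close to mouse Het_484 for *Prtn3* but not for *Elane* or *Mpo*. The log2 fold changes were -0.08 for *Elane* (standard error 0.426) and 0.09 for *Prtn3* (standard error 0.460), both with an edgeR adjusted p of 0.976 or more.

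The early genes were compared as ratios within each mouse. *Elane* amounted to between 0.252 and 0.318 of *Mpo* in CPM over the 8 mice, an SD of the log2 ratio of 0.118 against a counting error of 0.0723 to 0.134 per mouse. The ratio of *Prtn3* to *Elane* was 0.783 to 0.982 in 7 mice and 1.32 in mouse Het_491, an SD of the log2 ratio of 0.237 that exceeded its counting error of 0.0931 to 0.173 per mouse. That spread rests on 1 animal, since without mouse Het_491 the SD was 0.107, within the counting error. These ratios were chosen after the values were seen, and pairwise correlations over the 8 mice were 0.90 to 0.98 among the 3 genes (Pearson's r of log2 CPM, a description without a test).

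Among the middle members, *Ngp*, which encodes neutrophilic granule protein of the secondary granules, was found at 255, 72.8, 62.3 and 96.8 CPM in WT mice 4, 5, 6 and 8. Mice Het_2, Het_7, Het_484 and Het_491 had 98.1, 59.95, 136 and 186 CPM. The highest value was that of WT mouse 4 and the lowest that of mouse Het_7, close to WT mouse 6. Averaged by genotype, it came to 122 ± 90.1 CPM for WT against 120.1 ± 54.0 CPM for *Opa1*+/- (SD, n = 4 each), a log2 fold change of -0.02 (standard error 0.473, edgeR adjusted p = 0.995).

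*Camp*, the gene of the antimicrobial peptide cathelicidin, ranged from 29.6 to 85.1 CPM in WT and from 15.6 to 70.9 CPM in *Opa1*+/- animals (log2 fold change -0.17, standard error 0.460). *Mmp8*, the gene of neutrophil collagenase, the lowest member per length, ranged from 3.52 to 18.0 CPM in WT and from 4.11 to 13.2 CPM in *Opa1*+/- animals (log2 fold change 0.13, standard error 0.523). For both, WT mouse 4 was highest and mouse Het_491 was next. Adjusted p-values from edgeR were 0.957 and 0.970.

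*Ltf*, the gene of the iron-binding protein lactoferrin, departed from this pattern. Its level was 106, 67.3, 113 and 59.5 CPM in WT mice 4, 5, 6 and 8 and 44.8, 141, 103 and 228 CPM in mice Het_2, Het_7, Het_484 and Het_491. WT mouse 4 did not stand out, WT mouse 6 and mouse Het_7, which were low for *Ngp*, lay in the upper range, and mouse Het_491 was highest. The mean was 86.6 ± 27.1 CPM for WT against 129 ± 76.7 CPM for *Opa1*+/- (SD, n = 4 each), a log2 fold change of 0.58, the highest of the 10, which did not pass the test (standard error 0.418, unadjusted p = 0.199, edgeR adjusted p = 0.808).

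*Lcn2*, the gene of lipocalin 2, which binds bacterial siderophores, shared features of both patterns. Its levels were 71.0, 23.5, 29.5 and 27.3 CPM in WT and 25.1, 33.7, 34.8 and 85.0 CPM in *Opa1*+/- animals, in the same order. WT mouse 4 and mouse Het_491 were high, while mouse Het_484, high for the early genes, lay with the other 5 mice. The log2 fold change was 0.24 (standard error 0.444, edgeR adjusted p = 0.935).

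The late members *S100a8* and *S100a9* encode the subunits of calprotectin, a calcium- and zinc-binding complex that fills the neutrophil cytosol. *S100a9* was measured at 474, 119.6, 107 and 164 CPM in WT mice 4, 5, 6 and 8 and at 184, 99.7, 259.9 and 322 CPM in mice Het_2, Het_7, Het_484 and Het_491. *S100a8* came to 251, 57.7, 55.9 and 81.3 CPM in WT and 78.2, 50.2, 135 and 193 CPM in *Opa1*+/- animals. Both genes ranked the mice alike at the top, with WT mouse 4 above mice Het_491 and Het_484, and mouse Het_7 lowest. Group means of *S100a9* were 216 ± 174 CPM for WT and 216 ± 96.1 CPM for *Opa1*+/- (SD, n = 4 each), and the log2 fold changes were 0.00 for *S100a9* (standard error 0.504) and 0.03 for *S100a8* (standard error 0.548), with edgeR adjusted p-values of 0.9995 and 0.993.

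The partners of calprotectin were compared within each mouse. *S100a8* amounted to between 0.425 (mouse Het_2) and 0.6002 (mouse Het_491) of *S100a9* in CPM, with WT mice between 0.482 and 0.528. No difference between genotypes was detected in the log2 ratio (difference 0.00, exact permutation p = 0.971 over 70 arrangements, of which the smallest possible p is 0.0286). Its SD of 0.140 over the 8 mice exceeded the counting error of 0.0269 to 0.0582.

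Summed over the 10 members, granule transcripts came to 1419, 435, 460.5 and 530.1 CPM in WT mice 4, 5, 6 and 8 and to 520.0, 458, 864 and 1182 CPM in mice Het_2, Het_7, Het_484 and Het_491. Of these, 5 mice lay between 435 and 530.1 CPM and 3 between 864 and 1419 CPM, with both genotypes in each range. Genotype means were 711 ± 474 CPM for WT and 756 ± 335 CPM for *Opa1*+/- (SD, n = 4 each, exact permutation p = 0.857). No difference was detected in the sums of early, middle and late members either, with exact permutation p-values of 0.943, 0.543 and 0.971.

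**Figure D2:**
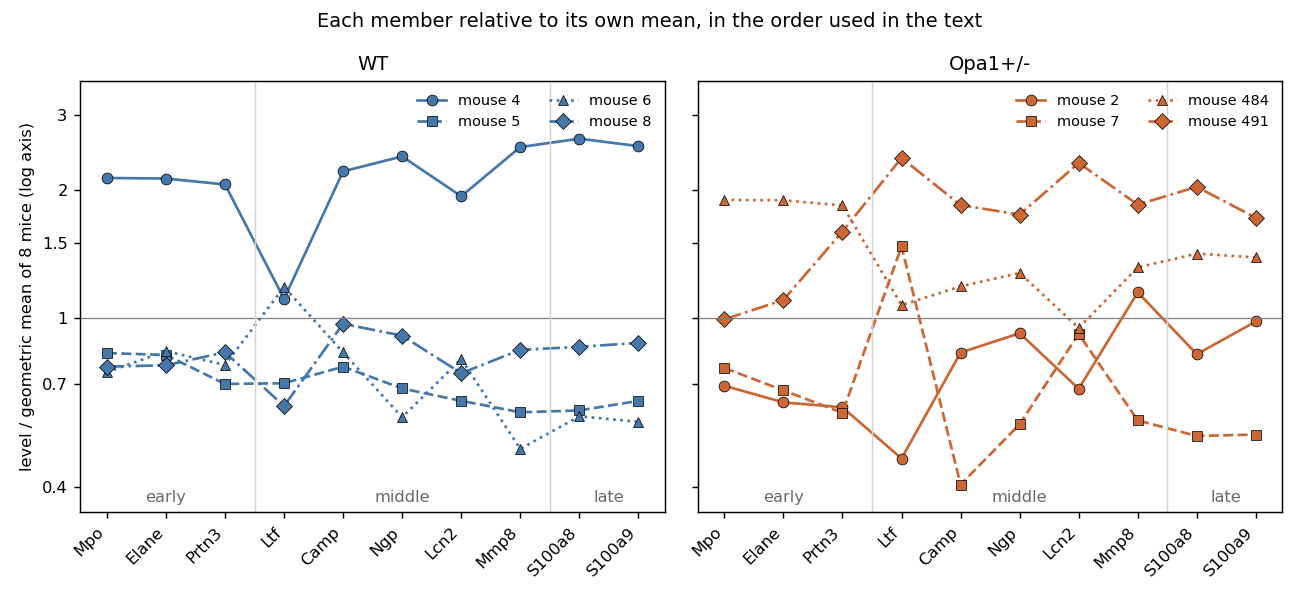
Level of each member in each mouse divided by that member's geometric mean over the 8 mice (log axis), with early members to the left and late ones to the right and 1 line per mouse. WT mouse 4 runs near or above 1.93 except at *Ltf* (1.11), and mouse Het_484 falls from 1.89 at *Mpo* to 1.07 at *Ltf*, while mouse Het_491 goes from 0.992 at *Mpo* to 2.37 at *Ltf*.

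The high mice differed in which stages they were high for. In mouse Het_484 the early members stood at 1.84 to 1.89 times their geometric mean over the 8 mice and the middle members at 0.947 to 1.31 times. In mouse Het_491 the order was turned, with *Mpo* at 0.992, *Elane* at 1.10 and *Prtn3* at 1.59 times and the middle members at 1.75 to 2.37 times, so that *Prtn3* came close to *Ngp* at 1.75 times. In WT mouse 4 both were high, at 2.06 to 2.13 times for the early members and 1.93 to 2.52 times for the middle members other than *Ltf*.

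As ratios of summed CPM, early to middle members were 0.295, 0.304, 0.238 and 0.256 in WT mice 4, 5, 6 and 8 and 0.240, 0.211, 0.427 and 0.142 in mice Het_2, Het_7, Het_484 and Het_491. Mice Het_484 and Het_491 were the highest and the lowest of the 8, with all WT mice in between. The difference between genotypes was -0.21 on the log2 scale (exact permutation p = 0.600), while the SD within the group was 0.656 for *Opa1*+/- and 0.167 for WT mice. With *Camp*, *Ngp* and *Mmp8* alone as middle members, a choice made after the values were seen, the ratio was 0.415 to 0.586 in WT mice and again highest in mouse Het_484 (0.736) and lowest in mouse Het_491 (0.307), but the difference between genotypes shrank to -0.034 (exact permutation p = 0.914).

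Early to late members gave 0.218, 0.338, 0.352 and 0.237 in the WT mice and 0.190, 0.358, 0.356 and 0.161 in the *Opa1*+/- mice, in the same order. Each genotype thus held a pair near 0.35 and a lower pair, and the groups overlapped (log2 difference -0.16, exact permutation p = 0.657). Middle to late members ranged from 0.739 to 1.48 in WT and from 0.794 to 1.70 in *Opa1*+/- mice (log2 difference 0.04, exact permutation p = 0.886). Counting error of these log2 ratios was at most 0.0553 per mouse, below the SD between mice of 0.432 to 0.464.

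**Figure D3:**
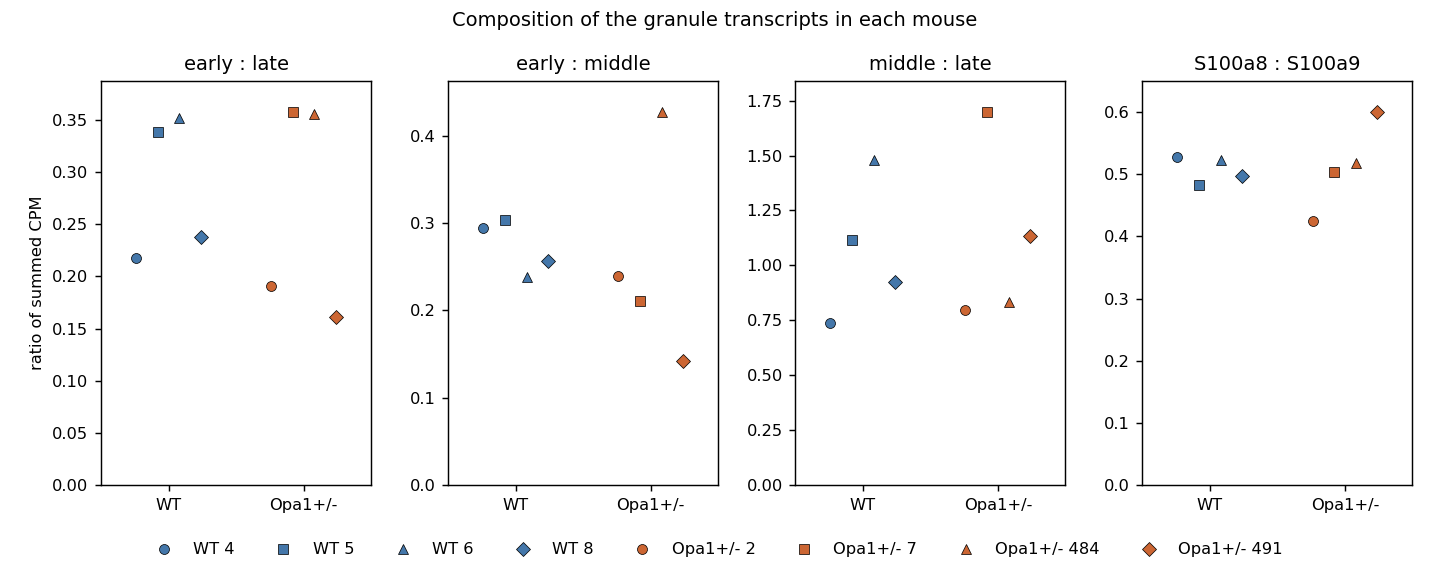
Ratios of summed CPM within each mouse, from left to right early to late, early to middle and middle to late members and *S100a8* to *S100a9*, on linear axes from 0. Mice Het_484 and Het_491 take the extremes of the early to middle ratio, 0.427 and 0.142, and the genotypes overlap in each panel.

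Correlations between members over the 8 mice cut across the early, middle and late members, since 3 of the middle ones went with the late pair and not with *Ltf* (Pearson's r of log2 CPM, points that share a library and its scaling, without a test). *Camp*, *Ngp*, *Mmp8*, *S100a8* and *S100a9* correlated at 0.87 to 0.996 with each other and at 0.68 to 0.93 with the early members. This group was formed after the values were seen. *Ltf* correlated at 0.22 to 0.47 with 8 members and at 0.75 with *Lcn2*. The ratio of *Ltf* to *Ngp* accordingly ran from 0.416 in WT mouse 4 to 2.35 in mouse Het_7, and that of *Camp* to *Ngp* from 0.261 to 0.513, both chosen after the values were seen.

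*Lcn2* and *Ltf* are also known as products of glandular and mucosal epithelium. Genes of such epithelium did not vary alike between the libraries. The sum of 6 of them was 1096, 2911, 1111 and 1732 CPM in WT mice 4, 5, 6 and 8 and 1024, 827, 2365 and 2204 CPM in mice Het_2, Het_7, Het_484 and Het_491. Most of it in the lower libraries was *Bpifa1*, a secreted protein of airway epithelium, at 791 to 1622 CPM. *Bpifb1*, of the same family, varied steeply, at 0.228, 1046, 0.896 and 52.7 CPM in WT mice 4, 5, 6 and 8 and at 8.63, 5.31, 566 and 719.8 CPM in mice Het_2, Het_7, Het_484 and Het_491. WT mouse 5 and mice Het_484 and Het_491 were high, and WT mouse 4 was near 0 for this gene, though not for the sum. *Dmbt1*, another secreted epithelial protein, followed the same order, from 0.171 CPM in WT mouse 4 to 602 CPM in WT mouse 5. *Lyz1* was also highest in WT mouse 5, at 323 CPM, whereas *Muc5b* (8.92 to 44.5 CPM) was highest in mouse Het_2 and *Pigr* (0.856 to 10.98 CPM) in mouse Het_491. WT mouse 5, with the highest sum, had 67.3 CPM of *Ltf* and 23.5 CPM of *Lcn2*, among the lower values of each. The 6 genes were chosen after the values were seen, and its part in the members' levels was not tested.

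Leaving out 1 of the high mice shifted the fold changes, not always alike for all members. Without WT mouse 4, all 10 log2 fold changes were positive, from 0.31 to 0.91, and 0 were called. One of these, *Mmp8* at 0.91 (standard error 0.362), had an unadjusted p of 0.0348 and an edgeR adjusted p of 0.453, so that 1 of 10 members was under an unadjusted p of 0.05 in this fit beside 10.4% of all genes. Without mice Het_484 and Het_491, 9 of 10 were negative, down to -0.95 for *Camp*, and *Ltf* was at 0.10. Groups did not overlap for 2 of the 10, *Elane* and *Prtn3*, beside 12.2% of all genes for these 4 against 2 mice. With all 3 mice left out, 5 were positive and 5 negative, with a median of 0.00. The same 2 genes then had an unadjusted p under 0.05, beside 5.34% of all genes, and groups that did not overlap, beside 23.2% of all genes for 3 against 2 mice. Without mouse Het_2, *Ltf* was at 0.86 (standard error 0.303, unadjusted p = 0.0202, edgeR adjusted p = 0.827), the 1 member under an unadjusted p of 0.05 beside 5.61% of all genes. Without mouse Het_484 the members moved apart, *Mpo* to -0.45 and *Elane* to -0.50 against 0.68 for *Ltf* and 0.35 for *Lcn2*. Without WT mouse 6 *Ltf* was at 0.73 while the other 9 were lower than with all mice, and without mouse Het_7 it was at 0.53 while the other 9 were higher. No member was called in any of these fits. What the 3-digit numbers of mice Het_484 and Het_491 mark was not given in the sources used here.

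**Figure D4:**
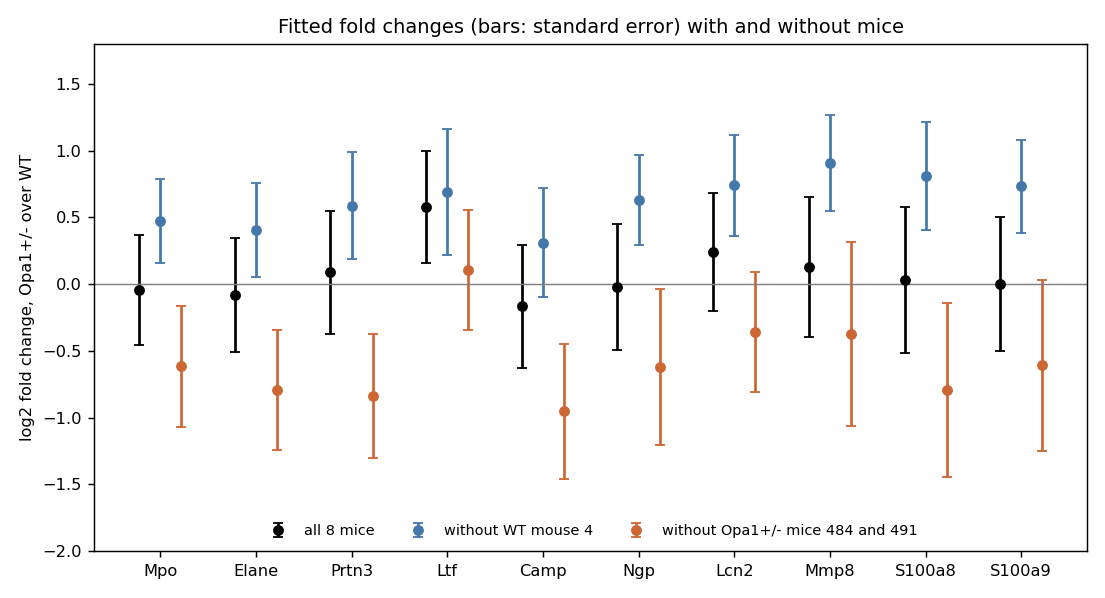
Log2 fold change of each member, *Opa1*+/- over WT, with bars for the standard error, fitted to all 8 mice (black), without WT mouse 4 (blue) and without mice Het_484 and Het_491 (orange). Values without WT mouse 4 lie between 0.31 and 0.91, and those without mice Het_484 and Het_491 between -0.95 and 0.10.

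Other genes of the neutrophil lineage gave no call either. Of 10 further genes listed for primary granules and the promyelocyte stage, 3 were positive and 7 negative with 0 at an unadjusted p under 0.05, and their summed level was 884 ± 77.2 CPM for WT and 891 ± 49.7 CPM for *Opa1*+/- (SD, n = 4 each, exact permutation p = 0.943). Most of that sum was *Calr*, a chaperone of the endoplasmic reticulum, *Igfbp4*, a secreted binding protein of insulin-like growth factors, and *Hmgn2*, a chromatin protein, none of them granule proteins and all expressed by many cell types. Of the others, *Ctsg*, the granule protease cathepsin G that is restricted to myeloid cells, was found at 9.93, 4.83, 2.69 and 3.38 CPM in WT mice 4, 5, 6 and 8 and at 3.13, 2.61, 6.68 and 4.02 CPM in mice Het_2, Het_7, Het_484 and Het_491. *Ctsg* was thus highest in WT mouse 4 and mouse Het_484, as the early members were. It was chosen after its values were seen. Of the 10 genes 6 were highest in WT mouse 4, beside 12.9% of all genes tested.

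Of 17 further genes of secondary and tertiary granules, 17 entries were tested (*Itgam* has a pair of entries and *Chit1* was below the filter), of which 10 were positive and 7 negative, again with 0 at an unadjusted p under 0.05 (exact permutation p = 0.857 for the sum). The highest CPM were those of *Lyz2*, lysozyme, at 194 ± 82.9 for WT and 221 ± 128 for *Opa1*+/- (SD, n = 4 each), *Anxa1*, a phospholipid-binding protein of many cells, *Hp*, haptoglobin, and *Mmp9*, gelatinase B. *Hp* had a log2 fold change of 0.75 (standard error 0.384, unadjusted p = 0.0799, edgeR adjusted p = 0.758). *Lyz2* was highest in mouse Het_491 at 395 CPM and next in WT mouse 5 at 309 CPM, with WT mouse 4 at 200 CPM. It has a near-identical copy, *Lyz1*, and their counts are uncertain where reads could be split.

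Markers of mature neutrophils were present in each library. *Ly6g*, a surface marker of mouse neutrophils, ranged from 0.684 to 2.74 CPM, and *Cxcr2*, the chemokine receptor that leads mature cells out of the marrow, from 1.13 to 5.54 CPM. Of 20 such genes 16 passed the filter, 10 of them positive and 6 negative, and 0 had an unadjusted p under 0.05 (exact permutation p = 0.743 for the sum). *Retnlg*, which encodes a resistin-like secreted protein, ranged from 3.86 to 27.7 CPM. All 3 were highest in WT mouse 4, and *Ly6g* and *Cxcr2* were chosen after their values were seen. WT mouse 4 was highest for 10 of the 16 tested, these 3 included, beside 12.9% of all genes tested. In 6 of 16 the 3 highest mice were WT mouse 4 and mice Het_484 and Het_491, beside 4.66% of all genes tested. Others ran differently. *G0s2*, a lipolysis inhibitor expressed in many tissues and the highest of the list in CPM, was at 26.1 CPM in WT mouse 4 and 37.5 CPM in WT mouse 5, and *Fcgr3*, an Fc receptor that macrophages express too, was highest in WT mouse 6 at 12.3 CPM. *Msrb1* ranged from 21.6 to 26.7 CPM, with WT mouse 4 on top.

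Regulators of granulocyte formation gave 8 positive and 5 negative of 13, with 0 at an unadjusted p under 0.05 (exact permutation p = 0.771 for the sum). *Cebpe*, the C/EBP factor needed for secondary granule genes, was found at 3.94, 0.977, 0.657 and 1.47 CPM in WT mice 4, 5, 6 and 8 and at 1.54, 1.05, 2.41 and 3.51 CPM in mice Het_2, Het_7, Het_484 and Het_491, with the 3 high mice again on top. *Spi1*, the gene of PU.1, ranged from 4.69 to 9.08 CPM with the same 3 mice on top. *Cebpa*, which acts earlier and is also expressed outside the marrow, was highest in WT mouse 5 at 26.5 CPM, and was at 14.8 CPM in WT mouse 4. *Gfi1*, a repressor needed for neutrophil formation, did not follow them, with 4.28, 4.49, 9.62 and 5.73 CPM in WT mice 4, 5, 6 and 8 and 8.57, 5.31, 4.27 and 6.83 CPM in mice Het_2, Het_7, Het_484 and Het_491. Of the 13 regulators, *Cebpe* and *Spi1* were the 2 with these 3 mice on top. *Kit* and *Runx1*, the highest of the list in CPM and expressed outside the granulocyte lineage as well, ranged from 42.2 to 60.2 and from 25.2 to 31.3 CPM. *Cebpe*, *Spi1* and *Gfi1* were chosen after their values were seen.

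By likeness to the members' mean pattern (Pearson's r over 8 mice of log2 CPM, each member first centred and divided by its SD), the nearest of 17966 other genes was *Cybb* at 0.99, the catalytic subunit of the phagocyte NADPH oxidase. It was followed by *Mcemp1*, *Fpr2* (a formyl peptide receptor), *Siglece*, *Rps3a3*, *Gtf2f2*, *Gm17807*, *Bin2*, *F10* and *Ccr1*, the last at 0.96. *Cybb* reached 41.2, 20.02, 21.5 and 21.9 CPM in WT mice 4, 5, 6 and 8 and 19.3, 20.3, 30.6 and 32.3 CPM in mice Het_2, Het_7, Het_484 and Het_491. Of the members, *Ltf* was least like that mean at 0.48, and the other 9, which form the mean with it, were at 0.85 to 0.98.

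Genes of other blood and marrow lineages were compared with the members across mice. No list had a gene with an unadjusted p under 0.05, and no difference in summed level between genotypes was detected after adjustment over 14 lists (adjusted p = 1 for each, exact permutation tests). Platelet genes, led by *Gp1bb*, *F2rl2*, *Ppbp* and *Pf4*, summed to 208, 104, 65.2 and 77.7 CPM in WT mice 4, 5, 6 and 8 and to 83.4, 92.1, 129 and 114 CPM in mice Het_2, Het_7, Het_484 and Het_491. The 3 mice with the most granule transcripts had the most platelet transcripts as well. These 3 were the highest for 6 of the 9 platelet genes, beside 4.66% of all genes tested. *F2rl2* was not among the 6, since WT mouse 5 and mouse Het_7 lay above mice Het_484 and Het_491. The same 3 mice also had the highest erythroid, B lineage and cell division sums. They were highest for 7 of 15 erythroid, 3 of 10 B lineage and 6 of 10 cell division genes. The sums of monocyte and macrophage, eosinophil and mast cell, and bone genes did not have these 3 on top.

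Erythroid genes, mostly haemoglobins, summed to 21830 CPM in WT mouse 4 and 8010 to 12637 CPM in the other WT mice, and to 25396 CPM in mouse Het_491 and 15400 to 18793 CPM in the other *Opa1*+/- mice. The ratio of members to erythroid genes was 0.0344 to 0.0662 in WT and 0.0298 to 0.0465 in *Opa1*+/- mice, overlapping between genotypes (log2 difference -0.46, exact permutation p = 0.114). The difference was -0.66 without WT mouse 5 (exact permutation p = 0.0571) and -0.74 without mice Het_484 and Het_491 (exact permutation p = 0.133). With mice left out these tests have fewer than 70 arrangements and thus a higher smallest possible p. Means of the erythroid sum were 12876 ± 6291 CPM for WT and 18840.5 ± 4627 CPM for *Opa1*+/- (SD, n = 4 each, exact permutation p = 0.171).

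Across the 8 mice, the log2 sum of the members correlated with that of platelet genes at r = 0.83 (rho = 0.57, exact permutation p = 0.00776 and 0.151, adjusted over 7 relations 0.0543 and 0.264). For B lineage genes r was 0.79 (rho = 0.57, adjusted p = 0.0688 and 0.264, exact permutation) and for erythroid genes 0.77 (rho = 0.67, adjusted p = 0.0745 and 0.264, exact permutation). Cell division, eosinophil and mast cell, and monocyte and macrophage genes gave r of 0.63, 0.60 and 0.54, and bone genes gave -0.24. The value for monocyte and macrophage genes was 0.85 without WT mouse 6, and that for eosinophil and mast cell genes was 0.37 without WT mouse 4. With all 8 mice and TMM scaling, none of the 7 relations passed an adjusted p of 0.05. Those with platelet and B lineage genes passed it with total counts alone and without WT mouse 5. Without WT mouse 4 and mouse Het_491, which lie farthest from the median, r was 0.64 for platelet, 0.21 for B lineage, 0.49 for erythroid, 0.37 for cell division, 0.69 for eosinophil and mast cell, 0.058 for monocyte and macrophage and 0.33 for bone genes, over a narrower range of the members' sum. Both values of a mouse share a library and its scaling.

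**Figure D5:**
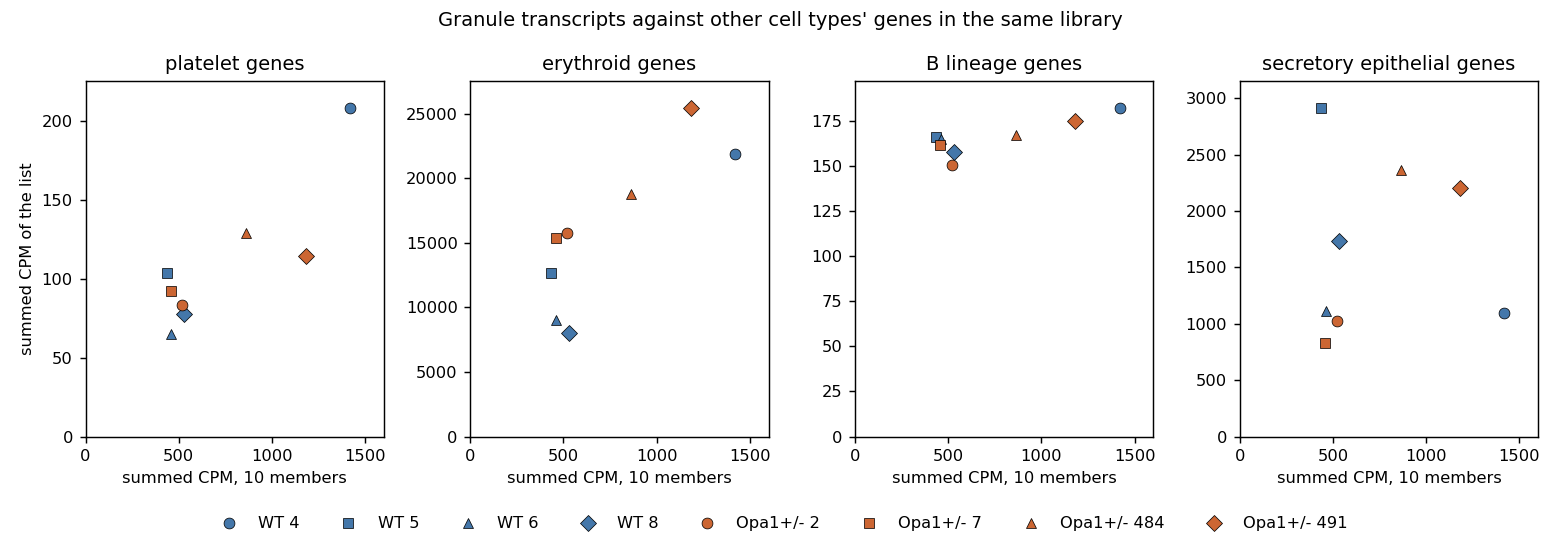
Summed CPM of platelet, erythroid, B lineage and secretory epithelial genes (vertical axes, linear from 0) against summed CPM of the 10 members in the same mouse. The 3 mice with 864 CPM or more of granule transcripts also have the highest platelet (114 to 208 CPM), erythroid and B lineage sums. The epithelial sum is highest in WT mouse 5 (2911 CPM), which has the fewest granule transcripts (435 CPM). Mice Het_484 and Het_491 follow it at 2365 and 2204 CPM.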

How the data were processed

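RNA was extracted from isolated cochleae of 8 mice, CORALL libraries with molecular identifiers were sequenced as paired reads, and the authors mapped them with STAR to GRCm38. For each mouse the authors deposited raw counts per gene symbol, whole numbers that were neither normalized nor filtered. The counting program, its version and its use of strand were not given in the sources used here. The labels and the methods name different extraction kits, and age comes from the methods. Samples were grouped by the genotype in the labels. No label or source says more on litters, and p-values measure the spread between these mice.

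Of the entries, 15 with a number in place of a symbol (0.112% to 0.124% of counts) were left out, and 126 that repeat a symbol were kept apart. Depth was 15978051 to 20828030 counts per mouse, which sets the counting error only. Replicates differed by more than sampling noise. Genes with a mean normalized count over 10 (19366) were tested with edgeR 4.0.16 (quasi-likelihood, TMM, Benjamini-Hochberg). The standard error was taken as the size of the log2 fold change over the square root of F. CPM is TMM-scaled, and log2 CPM has a prior count of 2. Single values per mouse were compared by exact two-sided permutation over 70 arrangements. The quasi-likelihood test of edgeR was checked on simulated data. Tools were R 4.3.3 with DESeq2 1.42.0 and limma 3.58.1 (voom), and matplotlib 3.10.9 under Python 3.11.15, with GENCODE vM21 and RefSeq promoters.

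The members and the gene lists were chosen with earlier results of these data known. Genes named are the members, *Opa1*, up to 4 genes of highest mean CPM of each other list, those with an unadjusted p under 0.05 (up to 3 per list), the 10 genes most like the members with a mean of 1 CPM or more, and those said to be chosen after seeing values. Alternatives were other scalings, tools and filters, a threshold of 0.1, mean log2 CPM in place of sums, and mice left out.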

Additional observations from a re-analysis of the deposited data

Results flagged for a closer look

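A value was picked out where, among the 4 mice of a group, the gap to the nearest mouse divided by the group's range exceeded Dixon's 95% critical value, a limit that chance passes in about 1 of 20 groups. Of 38 groups examined, which are not independent since members vary together, 12 passed it. In 11 of these the high mouse was WT mouse 4. Its early members stood out at 103 CPM of *Mpo* (other WT mice 36.0 to 39.9), 29.2 CPM of *Elane* (10.6 to 11.5) and 25.9 CPM of *Prtn3* (8.79 to 10.4). Its middle and late members stood out at 85.1 CPM of *Camp* (29.6 to 37.3), 71.0 CPM of *Lcn2* (23.5 to 29.5), 251 CPM of *S100a8* (55.9 to 81.3) and 474 CPM of *S100a9* (107 to 164). Its sums were 1419 CPM over the 10 members, 158 CPM over the early, 536 CPM over the middle and 725 CPM over the late members. The remaining value was *Lcn2* in mouse Het_491, at 85.0 CPM against 25.1 to 34.8 CPM in the other *Opa1*+/- mice. Causes of these values were not tested.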

How the results depend on the processing

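No paired analysis was possible because the litter of each mouse was not given in the sources used here. The count of members called was 0 under each alternative, including an adjusted p under 0.1, and that of members with an unadjusted p under 0.05 was 0 except for 0 to 1 with 1 mouse left out (3.71% to 10.4% of all genes in the same fits) and 2 (*Elane*, *Prtn3*) without mice Het_484 and Het_491 and WT mouse 4 (5.34%). Groups did not overlap for 2 members (the same pair) without mice Het_484 and Het_491 (12.2% of all genes) and with WT mouse 4 also out (23.2%). *Ltf* had a positive fold change under each alternative (0.10 to 0.86), directions of the other 9 were not stable, and the cause was not tested. With 1 mouse left out, log2 fold changes ran from -0.45 to 0.47 (*Mpo*), -0.50 to 0.40 (*Elane*), -0.22 to 0.59 (*Prtn3*), 0.15 to 0.86 (*Ltf*), -0.57 to 0.31 (*Camp*), -0.32 to 0.63 (*Ngp*), -0.28 to 0.74 (*Lcn2*), -0.14 to 0.91 (*Mmp8*), -0.35 to 0.81 (*S100a8*) and -0.26 to 0.73 (*S100a9*). Log2 ratios of group means ran from -0.21 to 0.67 for the sum of members, -0.42 to 0.48 for early, -0.19 to 0.63 for middle and -0.28 to 0.76 for late members. Differences in log2 ratios ran from -0.34 to 0.048 (early to late), -0.18 to 0.22 (middle to late), -0.49 to 0.035 (early to middle), -0.66 to -0.34 (members to erythroid genes, and -0.74 without mice Het_484 and Het_491) and -0.078 to 0.088 (*S100a8* to *S100a9*). Without mice Het_484 and Het_491 signs turned for *Prtn3* (-0.84), *Lcn2* (-0.36), *S100a8* (-0.80), *S100a9* (-0.61), *Mmp8* (-0.37), the sums of all (-0.54), middle (-0.38) and late members (-0.67) and *S100a8* to *S100a9* (-0.13). With WT mouse 4 also out they turned for *Prtn3* (-0.34), *Ngp* (0.027), *S100a8* (-0.023) and *S100a8* to *S100a9* (-0.11). limma voom turned *Mpo* (0.10), *Elane* (0.019) and *Ngp* (0.10). Total counts alone turned *S100a8* (-0.0095), *S100a9* (-0.038) and the late sum (-0.028), and *S100a9* was at -0.0027 with DESeq2 size factors, -0.0016 without mitochondrial, haemoglobin and member genes and -0.0025 in DESeq2. *Opa1* kept its direction (-0.90 to -0.83 with 1 mouse left out) but was not called without mouse Het_2 (adjusted p = 0.0704), without mice Het_484 and Het_491 (-0.86) or with WT mouse 4 also out (-0.87). Correlations of the members with platelet (0.82) and B lineage genes (0.77) passed an adjusted p of 0.05 with total counts alone and without WT mouse 5; with 1 mouse left out they ran from 0.66 to 0.89 and 0.62 to 0.87, and those with erythroid genes from 0.69 to 0.84, monocyte and macrophage genes from 0.40 to 0.85, eosinophil and mast cell genes from 0.37 to 0.78, cell division genes from 0.45 to 0.70 and bone genes from -0.53 to 0.039. Depth limits *Mmp8* most, with 59 counts at the lowest.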
